A study of Mus musculus with 6 samples.

Results

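The genes described here are 3 thrombospondins (Thbs1, Thbs2 and Thbs3), 3 vascular endothelial growth factors (Vegfa, Vegfb and Vegfc), the angiopoietin Angpt1 and the angiopoietin-like gene Angptl4. They were chosen by name, with earlier results of this same comparison known, and each symbol was matched to 1 Ensembl identifier of the deposited table. This gave 8 genes of 53465. The RNA came from the mouse mammary carcinoma line EMT6, grown in culture, and was sequenced as 6 polyA libraries. Libraries of EMT6 cells kept with an isotype control antibody are called PVITRO (n = 3), and libraries of EMT6 cells kept with anti-PD-L1 (EMT6 PDR in the labels) are called PTRVITRO (n = 3). Both groups were grown in RPMI with 5% FBS and with 0.5 μg/ml of antibody for more than 4 weeks. The PTRVITRO cells were derived by exposure to the antibody in culture with no passage in mice, and nothing in the labels says that the replicates of a group were separate cultures. By the study's own account, replicates not specified further are technical ones. The standard errors, intervals and adjusted p-values given here then measure only the spread between these libraries, not between independent cultures.

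Thrombospondins are large secreted proteins of the extracellular matrix. Thrombospondin 1 and thrombospondin 2 restrain blood vessel growth through the receptors CD36 and CD47 on endothelial cells, and thrombospondin 1 can also release TGF-beta from its latent form. VEGF ligands act on receptor tyrosine kinases of blood and lymphatic endothelium, angiopoietin 1 activates the receptor Tie2 (Tek) and steadies vessels, and angiopoietin-like 4 blocks lipoprotein lipase and is induced by low oxygen and by PPAR receptors. Tumor cells can secrete these proteins.

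The promoters of 3 genes are printed because they mark the ends of what follows. Thbs2 was the 1 gene of the 8 called by the edgeR fit over all genes, and Vegfa had the highest and Vegfc the lowest level of the VEGF ligands. Each line gives the 250 bases upstream of the RefSeq start (GRCm38.p6) on the strand of the gene, at chr17:14694263-14694512 on the minus strand for Thbs2, chr17:46032378-46032627 on the minus strand for Vegfa and chr8:54077282-54077531 on the plus strand for Vegfc.
Thbs2: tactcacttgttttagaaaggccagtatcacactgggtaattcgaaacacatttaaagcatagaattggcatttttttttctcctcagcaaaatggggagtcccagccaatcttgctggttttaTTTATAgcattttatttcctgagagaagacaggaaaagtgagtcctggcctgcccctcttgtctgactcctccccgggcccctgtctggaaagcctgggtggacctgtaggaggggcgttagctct
Vegfa: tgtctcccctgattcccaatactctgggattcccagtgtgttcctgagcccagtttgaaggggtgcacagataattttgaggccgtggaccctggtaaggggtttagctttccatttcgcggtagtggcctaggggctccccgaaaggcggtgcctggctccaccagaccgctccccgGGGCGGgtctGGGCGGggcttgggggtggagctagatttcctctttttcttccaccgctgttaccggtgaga
Vegfc: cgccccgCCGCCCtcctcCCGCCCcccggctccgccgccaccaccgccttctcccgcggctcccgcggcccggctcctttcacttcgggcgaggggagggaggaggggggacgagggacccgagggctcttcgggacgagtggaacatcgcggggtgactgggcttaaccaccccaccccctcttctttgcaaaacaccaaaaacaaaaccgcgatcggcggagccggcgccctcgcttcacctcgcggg
Capitals mark matches to 5 short motifs searched on both strands, which are the hypoxia response element core ACGTG, the GC box GGGCGG, the AP-1 motif TGANTCA, the TEAD motif GGAATG and the TATA box, with the letters TATAAA. The motifs do not overlap each other here. Of these, the Thbs2 window held only a TATA box match, which starts 126 bases before the RefSeq start, read on the strand opposite to the printed one. The Vegfa window held 2 GC boxes and the Vegfc window held 2. Among the windows of the same length at 32851 RefSeq starts, 32.7% held a GC box, 12.4% a TATA box, 16.6% a hypoxia response element core, 12.6% a TEAD motif and 6.75% an AP-1 motif. In the promoter table used here, drawn from RefSeq, 5 of the 8 genes were matched, with 6 starts, and the promoters of Thbs1, Angpt1 and Angptl4 were not analysed here. The second Vegfa start, inside the gene, had 1 hypoxia response element core and 1 GC box upstream of it, Vegfb had 4 GC boxes and Thbs3 had 1. A match describes letters in the window, not a bound site.

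The total count per library ran from 17757341 to 32426739, and all 8 genes passed the filter on low counts, among 14217 genes tested. Levels are given in CPM, the count relative to the library total scaled by its upper quartile. A floor of 3 counts corresponds to 0.168 CPM in the shallowest library, PTRVITRO replicate 3. That library stood apart on principal component 1, with 29.8% of the variance, at a score of 27.9 against -14.5 to 5.00 for the others. Without it the log2 fold changes described below were -0.34 for Thbs2, -0.27 for Thbs1, -0.08 for Vegfa and -0.29 for Vegfc. The epithelial keratins Krt8 (1077 ± 48.7 and 1086 ± 20.9 CPM, SD, n = 3) and Krt18 (489 ± 14.6 and 549 ± 23.1 CPM) were abundant in PVITRO and PTRVITRO, while Cdh1, which encodes E-cadherin, had a mean count of 0.333. Of the other epithelial markers, Krt19 (19.0 and 19.7 CPM), Krt14 (8.76 and 7.33 CPM) and Epcam (1.59 and 2.24 CPM) were far lower. Krt5 and Cldn3 had mean counts of 2 and 1. Endothelial markers summed to between 0.112 and 0.385 CPM per library over 7 genes, of which Cldn5, Emcn and Erg were at 0 throughout. Leukocyte markers summed to between 0.337 and 0.685 CPM over 8 genes, with Ptprc at 0.

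Levels of different genes were compared per kilobase of exon. Angptl4 had the highest level, at 176 ± 10.1 CPM per kb (SD, n = 6) and above 97.5% of the tested genes. Thbs1 followed at 93.7 ± 10.5 CPM per kb and Vegfa at 74.2 ± 4.04 CPM per kb, above 95.4% and 94.2% of the tested genes. Angpt1 stood at 15.9 ± 2.63 CPM per kb. Vegfb (8.08 ± 1.17 CPM per kb) and Thbs2 (8.07 ± 1.07 CPM per kb) could not be told apart, since their libraries overlapped between 6.99 and 9.07. Thbs3 (2.82 ± 0.178 CPM per kb) and Vegfc (0.681 ± 0.0849 CPM per kb) were lowest. The libraries of Thbs1 (81.9 to 110.3) and Vegfa (69.1 to 78.4) did not overlap with exon union lengths, but with the length of the longest transcript they did (85.1 to 114.6 against 85.8 to 97.4). Apart from this pair and that of Vegfb and Thbs2, neighbours in this order did not overlap with either length.

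**Figure D1:**
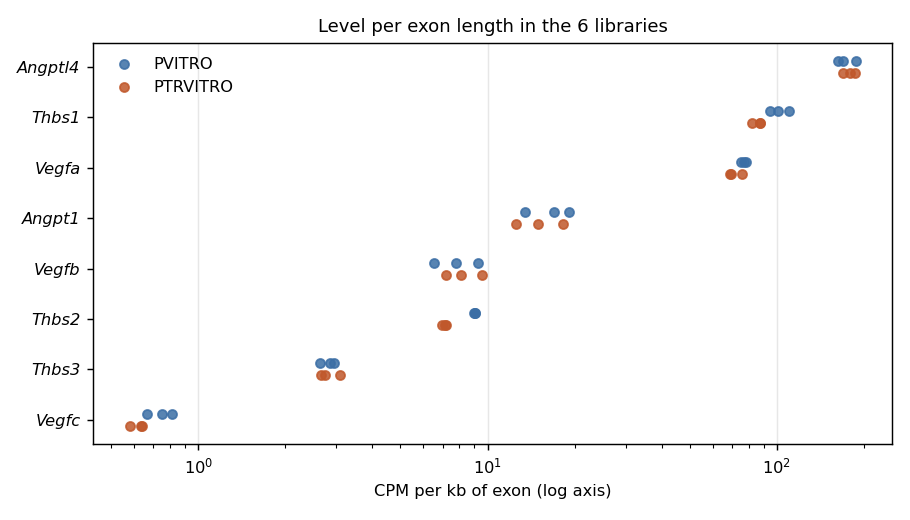
Level of each gene in CPM per kilobase of exon, on a log axis, in the 3 PVITRO (blue) and 3 PTRVITRO (orange) libraries, 1 point per library. Angptl4, Thbs1 and Vegfa lie at 69.1 CPM per kb or more in every library, and Vegfc reaches at most 0.810 CPM per kb.

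The comparison of PTRVITRO with PVITRO asked how prolonged exposure of tumor cells to the antibody, without immune cells, bears on their transcripts. Because the 8 genes were chosen with this comparison known, their differences are given as a description and no test is read from them. Of the 8, edgeR placed 1, Thbs2, past an adjusted p of 0.05 over all tested genes, where 0.246% of all tested genes were called (0.148% lower and 0.0985% higher in PTRVITRO). The log2 fold change was below 0 in 5 genes and above 0 in 3, with a median of -0.10, where 51.5% of all tested genes were below 0 and the median over all tested genes was -0.00. The groups did not overlap in 3 of the 8 genes (Thbs1, Thbs2 and Vegfc), each lower in PTRVITRO, against 17.6% of all tested genes without overlap (9.33% lower and 8.27% higher). Since the choice used these values, nothing is read from the counts. No gene of the 8 was called higher by edgeR, DESeq2 or limma-voom, and at an unadjusted p below 0.05 there were 3 lower (Thbs1, Thbs2 and Vegfa) and 0 higher, against 11.4% of all tested genes in either direction. As these are bulk samples, fewer cells that make a transcript and less RNA per cell cannot be told apart.

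**Figure D2:**
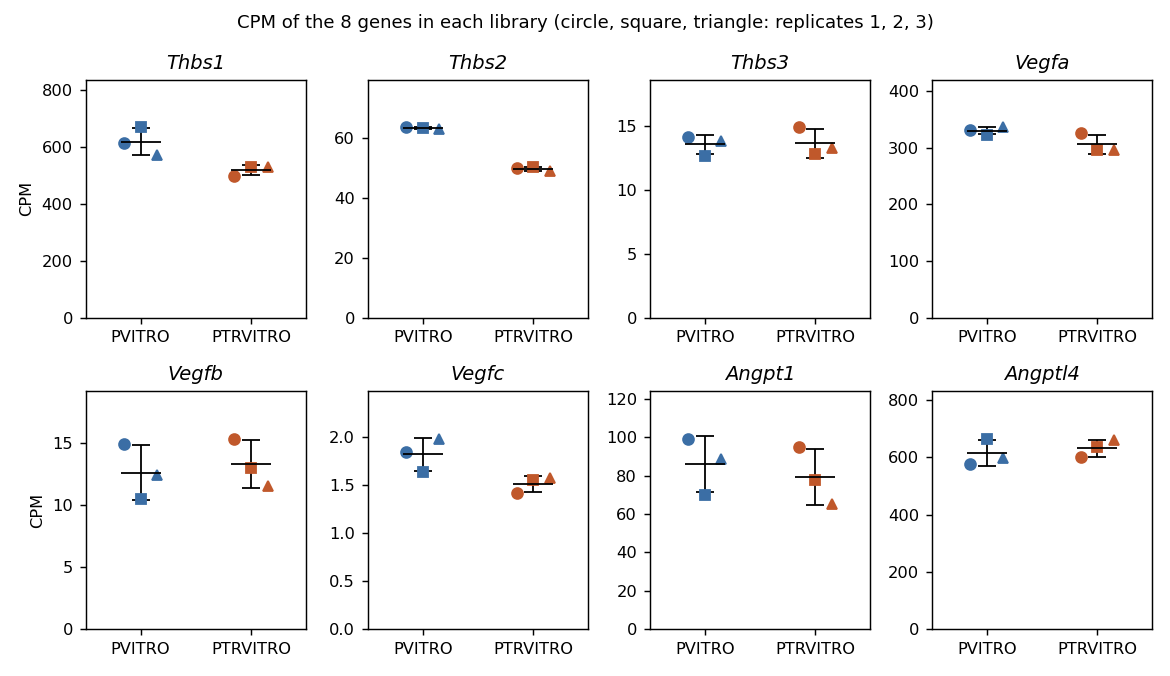
CPM of each gene in each library, with axes that start at 0; circles, squares and triangles are replicates 1, 2 and 3, and bars give the mean ± SD of 3 libraries. The Thbs2 libraries lie between 62.9 and 63.5 CPM in PVITRO and between 48.9 and 50.2 CPM in PTRVITRO, while those of Angpt1 spread from 65.4 to 99.3 CPM across both groups.

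Thbs2 (ENSMUSG00000023885.8, GRCm38, chromosome 17, 14665500 to 14694235, minus strand), an inhibitor of angiogenesis that also shapes collagen fibrils, fell in PTRVITRO. Its CPM was 63.5, 63.5 and 62.9 in PVITRO replicates 1 to 3 and 49.9, 50.2 and 48.9 in PTRVITRO replicates 1 to 3. The 2 groups were far apart and each was tight. The mean was 63.3 ± 0.327 CPM against 49.7 ± 0.647 CPM, a ratio of 0.785 and a log2 fold change of -0.35 (SE 0.0385). The coefficient of variation in PVITRO was 0.517%, below the 2.47% that counting error alone gives at these counts, and the spread in PTRVITRO was likewise below its counting error of 2.77%. Leaving out any 1 library gave log2 fold changes from -0.35 to -0.34, on the same values by which the gene was chosen.

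Thbs1 (ENSMUSG00000040152.8, GRCm38, chromosome 2, 118111876 to 118127133, plus strand) was the most abundant thrombospondin, with 88.2% to 89.8% of the summed CPM of the 3 genes in every library. It measured 614.3, 669.9 and 574.1 CPM in PVITRO and 497.6, 529.3 and 529.6 CPM in PTRVITRO. Every PTRVITRO library was below every PVITRO library, though the PVITRO libraries differed among themselves by more than the gap between the groups. The mean was 619.4 ± 48.1 CPM against 518.8 ± 18.4 CPM (ratio 0.837, log2 fold change -0.26, SE 0.0519). This did not pass the threshold in edgeR, and it did with DESeq2 (-0.25), without a filter on low counts (-0.26) and with a replicate block (-0.25). A lincRNA on the opposite strand, Gm29233, shares 208 exon bases with Thbs1. Its level was 3.24 ± 0.334 CPM in PVITRO and 2.10 ± 0.133 CPM in PTRVITRO (log2 fold change -0.62, SE 0.162). Whether reads were assigned by strand is not stated, so reads of the shared bases could belong to either gene.

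The proportion of Thbs2 to Thbs1 did not separate the groups. For each 100 CPM of Thbs1 there were 10.3, 9.47 and 10.96 CPM of Thbs2 in PVITRO and 10.04, 9.47 and 9.24 CPM in PTRVITRO, and these ranges overlapped. The sum of the 3 thrombospondins was 650.9 to 746.1 CPM in PVITRO and 562.4 to 592.2 CPM in PTRVITRO. Across the 6 libraries, log2 CPM of Thbs1 and Thbs2 had a Pearson r of 0.87, and after the group means were removed it was 0.11, a description over 6 points that share the group difference.

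Thbs3 (ENSMUSG00000028047.11, GRCm38, chromosome 3, 89215180 to 89226837, plus strand), a thrombospondin that lacks the repeats with which the other two act on vessels, measured 14.2, 12.7 and 13.8 CPM in PVITRO and 14.9, 12.8 and 13.2 CPM in PTRVITRO. The groups overlapped (13.6 ± 0.775 against 13.6 ± 1.11 CPM, log2 fold change 0.02, 95% interval -0.17 to 0.20). The sign turned when PVITRO replicate 2 (-0.03) or PTRVITRO replicate 1 (-0.06) was left out. Its exons share 318 bases with Mtx1 on the opposite strand, a mitochondrial outer membrane gene that measured 31.0 ± 0.188 and 29.2 ± 0.657 CPM. The remaining family members had few or no counts, with Comp at a mean count of 5.33 and Thbs4 at 0 in every library.

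Vegfa (ENSMUSG00000023951.17, GRCm38, chromosome 17, 46016993 to 46032369, minus strand), the main driver of blood vessel sprouting, measured 330.6, 323.2 and 336.0 CPM in PVITRO and 325.2, 296.2 and 296.5 CPM in PTRVITRO. PTRVITRO replicate 1 lay among the PVITRO libraries, and the other two lay below them. The mean was 329.9 ± 6.43 against 306.0 ± 16.7 CPM (ratio 0.928, log2 fold change -0.11, SE 0.0419, 95% interval -0.20 to -0.02), and edgeR did not call it.

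Vegfb (ENSMUSG00000024962.13, chromosome 19, 6982473 to 6987651), a VEGF ligand linked to cardiac and fat metabolism, measured 14.9, 10.5 and 12.4 CPM in PVITRO and 15.4, 13.0 and 11.6 CPM in PTRVITRO. The ranges of the groups overlapped (log2 fold change 0.10, 95% interval -0.19 to 0.39), and without PVITRO replicate 2 or PTRVITRO replicate 1 the sign turned (-0.02 each). Vegfc (ENSMUSG00000031520.6, chromosome 8, 54077606 to 54187096), the lymphatic ligand, rested on few reads, with 43, 49 and 48 counts in PVITRO and 46, 44 and 28 counts in PTRVITRO. At 1.84, 1.64 and 1.98 CPM against 1.42, 1.55 and 1.57 CPM its groups did not overlap, but the counting error alone (14.6% and 15.9%) exceeded the observed spread, and the 95% interval of the log2 fold change ran from -0.69 to 0.15.

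Angpt1 (ENSMUSG00000022309.9, chromosome 15, 42424723 to 42676977) measured 99.3, 70.2 and 88.6 CPM in PVITRO and 94.9, 77.9 and 65.4 CPM in PTRVITRO. Libraries of 1 group differed by more than the means of the groups (86.0 ± 14.7 against 79.4 ± 14.8 CPM, log2 fold change -0.10, 95% interval -0.40 to 0.19). Without PVITRO replicate 1 or PTRVITRO replicate 3 the log2 fold change was 0.02. The antisense gene Gm17473 shares 737 exon bases with Angpt1 and had between 3 and 12 counts per library. Angptl4 (ENSMUSG00000002289.15, chromosome 17, 33773750 to 33781830) measured 577.9, 665.3 and 599.1 CPM in PVITRO and 601.4, 635.5 and 660.1 CPM in PTRVITRO. The groups overlapped (614.1 ± 45.6 against 632.4 ± 29.5 CPM, log2 fold change 0.04, 95% interval -0.07 to 0.16). It was 0.0045 without PVITRO replicate 1 and 0.10 without PVITRO replicate 2.

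**Figure D3:**
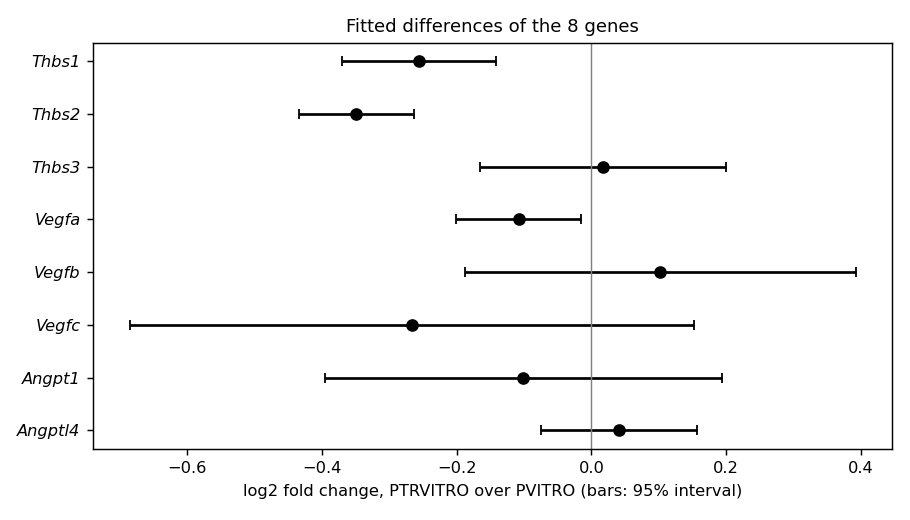
Fitted log2 fold change of PTRVITRO over PVITRO for the 8 genes, with 95% intervals from the edgeR fit over all genes, shown as a description. The intervals of Thbs2 (-0.35), Thbs1 (-0.26) and Vegfa (-0.11) lie below 0, and the interval of Vegfc is the widest.

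Angpt1 and Angptl4 varied between libraries in a way that did not follow the groups. Angptl4 was lowest in PVITRO replicate 1 and highest in PVITRO replicate 2, and Angpt1 was highest and second lowest in these same libraries. Over the 6 libraries the Pearson r of log2 CPM was -0.97 between Angpt1 and Angptl4, 0.87 between Angpt1 and Vegfb, and -0.84 between Vegfb and Angptl4. With the group means removed these were -0.97, 0.98 and -0.97. Thbs3 lay on the side of Angpt1 (r = 0.80 with Angpt1 and -0.79 with Angptl4). The coefficient of variation of Angpt1 was 17.1% in PVITRO and 18.6% in PTRVITRO, where counting error gives 2.14% and 2.16%. These are 6 points that share libraries and their depth, and 6.08% of all tested genes had an absolute r above 0.9 with Angptl4. The correlation with the first principal component was 0.78 for Angptl4, -0.84 for Angpt1, -0.86 for Vegfa, -0.70 for Thbs2 and -0.47 for Vegfb, where 15% of all tested genes had an absolute r above 0.8, and the part of that component in the result was not tested.

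**Figure D4:**
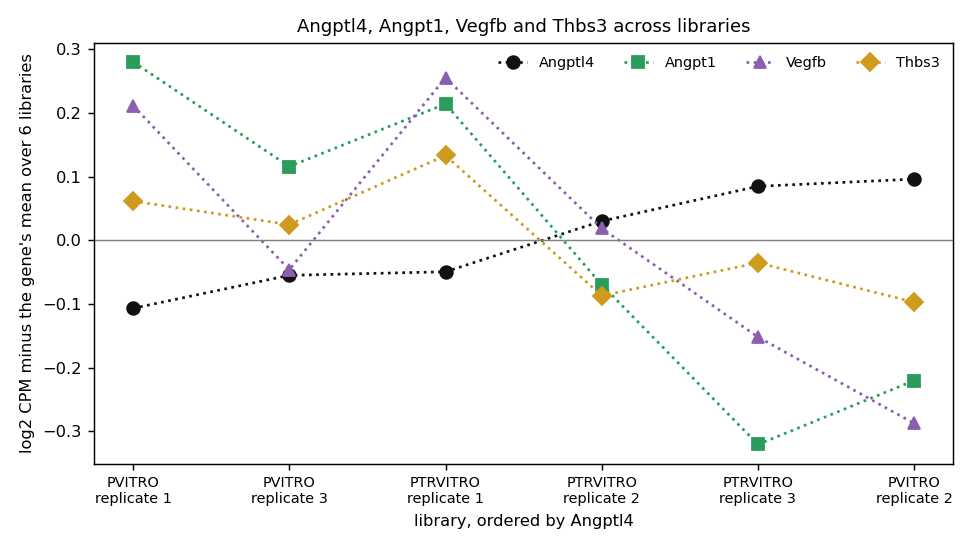
Level of Angptl4, Angpt1, Vegfb and Thbs3 in each library as log2 CPM minus the mean of the gene over 6 libraries, with libraries ordered by Angptl4. Angptl4 spans -0.11 to 0.096 from left to right, and Angpt1 spans -0.32 to 0.28 in nearly the opposite order, with a PVITRO library at each end of the Angptl4 order; the dotted lines only guide the eye.

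Genes whose profile over the 6 libraries was most like that of a member were ranked by Pearson r among 11805 genes with a mean count of at least 50. For Thbs1 these were Parp8, Atp8b2 and Rptor (r = 0.99 each). For Thbs2 they were Gm18284, Ice1 and Tmub1 (r = 1.00 each), for Vegfa Plppr3, Arhgef19 and Uso1 (r = 0.99 each), and for Angptl4 Ddr2, Zmym2 and Map1b (r = 1.00 each). These values describe 6 libraries that share their group difference and depth, and nothing about shared function is read from them.

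The wider pathway was read from lists written by function, with 105 genes outside the 8, of which 77 were tested. Of the genes later called, Ccn1 and Adamts1 were known from earlier results when the lists were written. Nothing is therefore read from the counts of calls in these lists. With edgeR, 3 of the 77 fell in PTRVITRO and 0 rose, where 0.246% of all tested genes were called. At an unadjusted p below 0.05 there were 17 of the 77, against 11.4% of all tested genes. The log2 fold change was above 0 in 38 and below 0 in 39, with a median of -0.00. DESeq2 called 4 of them, adding Tgfb2, where it called 111 of all tested genes. The number with limma-voom was 3, where it called 31 of all tested genes. Without a filter on low counts edgeR called 10, adding Nrp1, Hbegf, Adm, Ccn2, Bnip3, Plin2 and Tgfb2. That unfiltered fit called 400 of all 25274 genes it tested. Hbegf was also called without PVITRO replicate 2.

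Among 12 tested angiogenesis inhibitors, edgeR called 2, both lower in PTRVITRO, where 0.246% of all tested genes were called. Adamts1, 1 of the 2, was known from earlier results when the list was written, so nothing is read from this count. At an unadjusted p below 0.05 there were 4 lower (Adamts1, Sema3a, Sparc and Timp2) and 1 higher (Timp1), where 11.4% of all tested genes had such a p. Adamts1, a secreted protease that carries thrombospondin repeats, went from 144.6 ± 1.04 to 111.6 ± 3.16 CPM (edgeR adjusted p 0.00386, log2 fold change -0.37 with SE 0.0371). Sema3a, a semaphorin that binds neuropilin 1 and repels endothelial cells and axons, measured 64.6 ± 3.50 against 51.8 ± 0.992 CPM (edgeR adjusted p 0.0238, log2 fold change -0.31 with SE 0.0477). The call of Sema3a was lost when PVITRO replicate 1 or 3, or PTRVITRO replicate 2 or 3, was left out (adjusted p 0.0933 to 0.162, and 0.0191 at the lowest over all 6). The most abundant inhibitors per length, Timp1 (361.6 ± 17.3 against 396.6 ± 25.4 CPM) and Sparc (1125 ± 29.6 against 1041 ± 29.3 CPM), were not called. The list median was -0.04.

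Among 16 other angiogenic factors tested, edgeR, DESeq2 and limma-voom each called 1, Ccn1 in every case, where edgeR called 0.246% of all tested genes. Ccn1 was known from earlier results when the list was written, so nothing is read from this count. At an unadjusted p below 0.05 there were 3 lower (Ccn1, Ccn2 and Adm) and 1 higher (Hbegf), where 11.4% of all tested genes had such a p. Ccn1, a matricellular ligand of integrins, fell from 1147 ± 61.9 to 819 ± 55.8 CPM (edgeR adjusted p 0.00529, log2 fold change -0.49 with SE 0.0517). Hdgf, the next most abundant per length, measured 520.9 ± 6.41 and 512.3 ± 4.99 CPM. The list median was -0.01.

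With the filter on low counts, none of these 3 tools called a receptor of the members. Over all tested genes, 11.4% had an unadjusted p below 0.05 in the edgeR fit, the share to set beside the counts given here. Of 9 tested thrombospondin receptors and partners, edgeR, DESeq2 and limma-voom called 0 and 1 had an unadjusted p below 0.05, the integrin subunit gene Itgb3 (11.0 ± 1.04 and 12.6 ± 0.360 CPM, edgeR adjusted p 0.390). Calr (582.5 ± 7.94 and 559.1 ± 11.1 CPM) and Itgb1 (745.6 ± 11.7 and 715.8 ± 21.1 CPM) had the highest levels per length, Cd47 measured 283.1 ± 4.76 and 285.3 ± 5.09 CPM, and Cd36 was at 0 in every library. Of 5 tested VEGF ligands and receptors, all 3 tools called 0 and 1 passed an unadjusted p of 0.05. That gene, Nrp1, the co-receptor of VEGF and of Sema3a, measured 40.8 ± 2.29 and 33.8 ± 2.86 CPM (log2 fold change -0.26, edgeR adjusted p 0.174), and it was called by edgeR without the filter. Nrp2 (304.4 ± 9.04 and 292.7 ± 13.4 CPM) and Pgf (19.1 ± 1.72 and 19.1 ± 1.85 CPM) were the most abundant per length. Among the endothelial receptors, Flt1 had a mean count of 25.2 (0.918 ± 0.0600 CPM in PVITRO and 1.05 ± 0.172 CPM in PTRVITRO, log2 fold change 0.17, not called), while Kdr (mean count 0.167) and Flt4 (0) were not detected above the floor. The Tie2 gene Tek had 1 to 5 counts per library. Of the angiopoietin list only Angpt2 was tested (1.90 ± 0.365 and 2.44 ± 0.219 CPM, edgeR adjusted p 0.524), with 0 called by any of the 3 tools and 0 at an unadjusted p below 0.05.

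Of the 3 tested genes of the angiopoietin-like list, 0 were called by any of the 3 tools and 0 had an unadjusted p below 0.05. Angptl2 measured 148.3 ± 7.86 and 141.8 ± 1.86 CPM and Angptl6 47.4 ± 0.678 and 44.2 ± 1.95 CPM. Lpl, the enzyme that Angptl4 blocks, was at 0 in every library. The lists of HIF and PPAR genes bear on Vegfa and Angptl4. Of 16 HIF regulators and targets, 0 were called by the 3 tools and the median was 0.03. An unadjusted p below 0.05 was seen in 2 of them, where 11.4% of all tested genes had such a p, and nothing about the list is read from this count. These 2 were Arnt (38.6 ± 0.180 and 35.0 ± 0.712 CPM) and Bnip3 (36.5 ± 3.01 and 47.3 ± 13.0 CPM). The most abundant per length were glycolytic, with Pgk1 at 1076 ± 47.1 and 1139 ± 64.4 CPM and Ldha at 997.4 ± 53.9 and 1040 ± 77.7 CPM. Of 4 tested PPAR genes, 0 were called by the 3 tools. An unadjusted p below 0.05 was seen in 2, Plin2 (420.2 ± 26.8 and 465.7 ± 28.7 CPM) and Cpt1a (57.8 ± 2.95 and 53.0 ± 1.74 CPM), against the same 11.4% of all tested genes.

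Of 11 genes of the TGF-beta list, whose latent ligand thrombospondin 1 can release, edgeR and limma-voom called 0 and DESeq2 called 1. An unadjusted p below 0.05 was seen in 2, Tgfb2 and Tgfbr2, where 11.4% of all tested genes had such a p. The gene called by DESeq2 was Tgfb2, a TGF-beta ligand at 12.6 ± 1.10 CPM in PVITRO and 9.07 ± 0.292 CPM in PTRVITRO (log2 fold change -0.48, edgeR adjusted p 0.0585). The list median was -0.03. The most abundant per length, Ltbp1 (449.9 ± 41.6 and 439.8 ± 43.3 CPM) and Tgfbr2 (307.7 ± 14.7 and 285.9 ± 3.16 CPM), were not called. Markers of fibroblasts and pericytes, which also express thrombospondins, were read beside Thbs1 and Thbs2. Their summed level, most of it Col1a1, was 1218 to 1307 CPM in PVITRO and 1045 to 1165 CPM in PTRVITRO over 8 genes, and 3 of 5 tested, Dcn, Pdgfrb and Col1a1, were lower without overlap and at an unadjusted p below 0.05, where 9.33% of all tested genes were lower without overlap and 11.4% had such a p in either direction. The groups overlapped in the other two, Pdgfra (8.42 ± 1.17 and 9.07 ± 0.896 CPM) and Cspg4 (11.7 ± 0.912 and 11.2 ± 1.56 CPM). Col1a1 measured 1113 ± 44.0 and 979 ± 56.8 CPM and Dcn 42.2 ± 5.78 and 28.2 ± 4.72 CPM, edgeR and limma-voom called 0 and DESeq2 called 2, and Lum was at 0. Dpt and Rgs5 had mean counts of 0.167 and 6.67 and did not pass the filter. The RNA came from a tumor line in culture, so these markers are not read as fibroblasts or pericytes. Of 5 tested epithelial markers, edgeR and limma-voom called 0 and DESeq2 called 1. Where 11.4% of all tested genes had an unadjusted p below 0.05, 3 of the 5 did. These were Krt18 and Epcam (1.59 ± 0.306 and 2.24 ± 0.149 CPM), higher in PTRVITRO without overlap, and Krt14 (8.76 ± 0.423 and 7.33 ± 0.563 CPM), lower without overlap. The summed epithelial level was 1541 to 1664 CPM in PVITRO and 1627 to 1707 CPM in PTRVITRO. The part of these markers in the result was not tested.

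**Figure D5:**
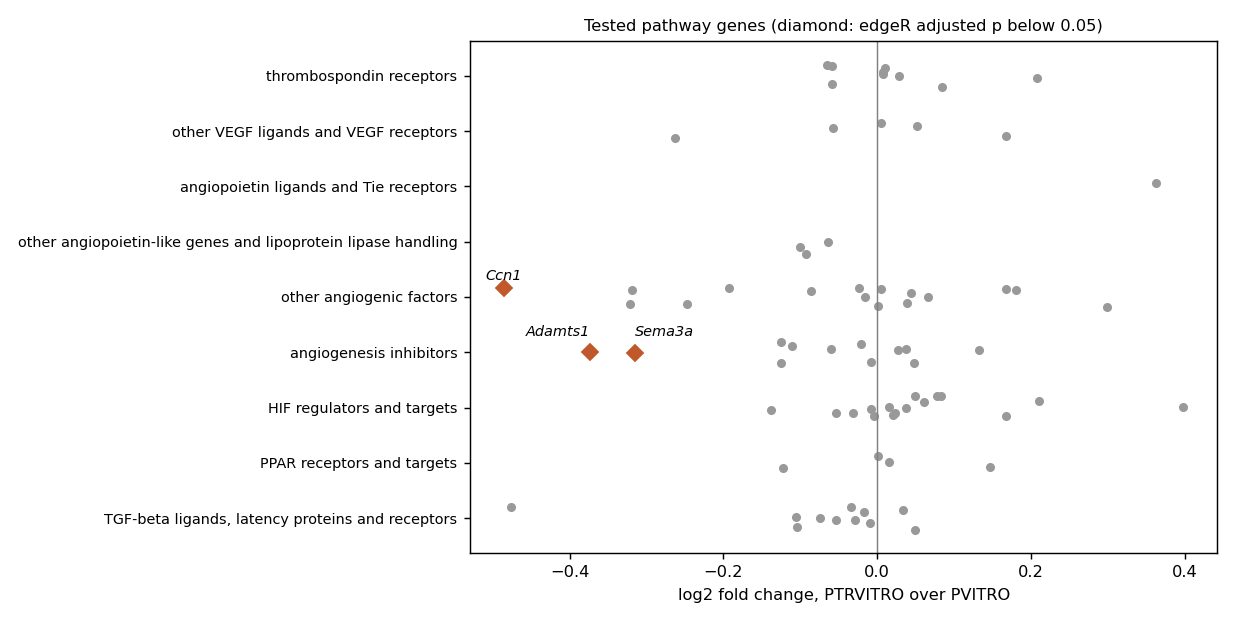
Log2 fold change of PTRVITRO over PVITRO for the 77 tested pathway genes, grouped by list, with points spread vertically at random; diamonds are the 3 genes past an edgeR adjusted p of 0.05. Ccn1 (-0.49), Adamts1 (-0.37) and Sema3a (-0.31) lie at the left, as does Tgfb2 (-0.48), which edgeR did not call, and the receptor lists hold no diamond.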

How the data were processed

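PolyA RNA of 6 samples was sequenced from TruSeq Stranded mRNA libraries. Per the labels and the methods of the study, the authors aligned reads with STAR 2.6.0a to GRCm38 and deposited gene-level expected counts (estimated counts) from RSEM 1.3.1, not scaled between samples and partly fractional (12.5% to 13.8% of genes per library). Whether RSEM was told the strand is not stated. Here, counts were rounded, filtered with filterByExpr (minimum count 10, minimum total 15), scaled by the upper quartile and tested in edgeR 4.0.16 (R 4.3.3; quasi-likelihood F, a group term alone), adjusting by Benjamini-Hochberg over all tested genes. Standard errors came from the F statistic. Levels per length used the union of exons of GENCODE M21 (GRCm38), and promoters came from RefSeq (GRCm38.p6). Transcripts of the 8 genes were compared with all transcripts using BLAST+ 2.17.0 (100 or more bases at 90% identity or higher), which found only their overlapping opposite-strand genes. Alternatives were DESeq2 1.42.0, limma-voom 3.58.1, 2 other scalings, 2 other filters, the replicate block and leaving out each library. The fit was tested on simulated data. Members and lists were chosen with earlier results of these data known. Genes named beyond the 8 were the called genes and the 2 most abundant per length of each list, the genes most like a member, and genes picked after their values were seen, namely Nrp1, Cd47, Itgb3, Arnt, Bnip3, Tgfb2, Hbegf, Adm, Ccn2, Flt1, Tek, Timp2, the markers and all genes named as near or at 0. Floors and counting errors cover counting error only.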

Additional observations from a re-analysis of the deposited data

How the results depend on the processing

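The 35 genes called over the whole table became 111 with DESeq2, 400 without a filter on low counts, 54 where each sample had to reach 10 counts, and 68 under the replicate block. They ran from 8 to 64 when 1 library was left out (8 without PTRVITRO replicate 3, 9 without PVITRO replicate 3, 11 without PVITRO replicate 1, 12 without PTRVITRO replicate 2 and 64 without PVITRO replicate 2). Of the calls, 14 were higher and 21 lower in PTRVITRO, and without a scaling factor 19 and 19. The count of the 8 genes called went from 1 to 2 with DESeq2, without a filter and with the replicate block, each adding Thbs1, and was 1 in each fit with 1 library left out. The count of pathway genes called went from 3 to 10 without a filter and ran from 2 to 4 with 1 library left out. Equal replicate numbers were not taken as pairs, since the labels do not state pairs. The same-number correlations of deviations were 0.109, 0.095 and -0.0556, and those of unlike numbers ran from -0.158 to 0.0674. With 3 libraries per group these values cannot settle whether the libraries were paired. The replicate block called 3 pathway genes, as did the fit without it.

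For the 8 genes, 52 of 55 log2 fold changes under other settings had the sign and call of the reported one, and 3 (Thbs1) became calls. With 1 library left out, 42 of 48 did and 6 changed sign, with ranges of -0.058 to 0.068 for Thbs3, -0.019 to 0.24 for Vegfb and -0.25 to 0.019 for Angpt1. Among the pathway genes, Pgf turned to -6.68e-05 where each sample had to reach 10 counts and to -0.0046 with the replicate block, and with 1 library left out it ran from -0.064 to 0.075 and Ltbp1 from -0.093 to 0.043. With the longest transcript as length, levels per kb became 9.58 for Thbs2, 3.37 for Thbs3, 92.1 for Vegfa, 10.1 for Vegfb, 19.4 for Angpt1 and 188.4 for Angptl4, in the same order. The causes were not tested, apart from the fewer samples or genes that some settings hold. Vegfc had 28 to 49 counts per library, where counting error alone gives a coefficient of variation of 14.6% in PVITRO and 15.9% in PTRVITRO.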
